A study of Homo sapiens with 6 samples.

Results

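Interleukins, chemokines, colony-stimulating factors and the receptors that bind them were examined in RNA-seq libraries of MDA-MB-231 cells depleted of Sam68. Its members were taken by their gene symbols. The group holds the loci named IL followed by a digit, CXCL, CCL, CXCR or CCR followed by a number, and CX3CL1, LIF, LIFR, CSF1, CSF2, CSF3 and OSMR. This gave 152 of the 74852 loci of the annotation. MDA-MB-231 is an established human cell line of triple-negative breast cancer (TNBC), and Sam68, encoded by KHDRBS1, is an RNA-binding protein that takes part in splicing. Control cells (si-CTRL) received a non-targeting siRNA pool and depleted cells (si-SAM68) a pool directed against SAM68, in repeated rounds of transfection in both groups. Each group has 3 libraries of polyadenylated RNA, from cells that the labels give as harvested 24 h after the last round. The methods of the study give another harvest time. Transfection itself is thus common to both groups, and untransfected cells were not analysed here.

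Interleukins and chemokines are secreted proteins through which cells signal to each other and to leukocytes. Members of the IL-1 family act through pairs of receptor chains that recruit MyD88, cytokines related to IL-6 and LIF act through gp130 (encoded by IL6ST) and JAK-STAT signalling, and chemokines act through G protein-coupled receptors to attract migrating cells. Many ligand genes of these families carry binding sites for NF-kB in their promoters. MDA-MB-231 cells are known for high expression of IL-6, IL-8 (encoded by CXCL8) and LIF.

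The deposited values are normalized read counts, that is, reads on a locus divided by the size factor of the library. A total of 52625492 to 82568487 reads were counted per library, and the ribosomal RNA locus took 15.1% of the reads of si-SAM68 replicate 2 against 1.83% to 3.17% in the other libraries. The KHDRBS1 locus (hg19 chr1:32479295-32526460) had 15660.4, 14483 and 14737 normalized reads in the si-CTRL libraries and 583, 602 and 670.2 in the si-SAM68 libraries (log2 fold change -4.60, SE 0.083, adjusted p = 2.13e-09), so that 4.13% of the control level was left and the labels of all 6 libraries held. All 7 markers of MDA-MB-231 cells were expressed, and KRT8, KRT18 and CAV1 among them were higher in si-SAM68 cells. Of 13 leukocyte markers, MS4A1, NKG7 and CD163 were at 0, only CSF1R and ITGAM reached a mean of 10, PTPRC did not exceed 13.6, and the summed level was 167 to 231 in si-CTRL and 176 to 205 in si-SAM68 libraries. Of 5 endothelial markers KDR and TEK were at 0 and the sum was 49.4 to 76.2 against 31.3 to 35.7. Of 6 fibroblast markers, 4 were tested and limma called none, with 0 at an unadjusted p under 0.05 and 0 in edgeR or DESeq2. COL1A1 was at 160257 ± 18683 reads in the controls and 156656 ± 18779 after depletion (SD, n = 3). COL1A2 had means of only 39.0 and 47.5, and PDGFRB of 710 and 677. DCN and LUM stayed under 10, and PDGFRA was read only on a locus joined with FIP1L1. Of 7 luminal breast markers 3 were tested, of which FOXA1 and ERBB3 rose and GATA3 was not called (427 ± 107 and 384 ± 27.0 reads, log2 fold change -0.13, SE 0.17, adjusted p = 0.669). Of the others, PGR was at 0, CDH1 and EPCAM stayed under 10, and ESR1 had group means of 8.22 in si-CTRL and 10.0 in si-SAM68. The sum of the luminal markers was 1529 to 1771 against 2297 to 2558. The part of these markers in the results below was not tested. In such bulk libraries fewer cells expressing a gene and less RNA per cell cannot be told apart. Nothing in the labels says that the 3 libraries of a group came from separate cultures, so the p-values measure the spread between these libraries, which may be technical.

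After Sam68 depletion many ligand genes of the group fell, among them CXCL8, CXCL1, IL1B, IL11, CSF2 and IL24, while the ligand gene IL18 rose. Receptor genes went both ways. LIFR, IL1RAP, IL31RA and IL17RC rose, and IL1R1, IL6R, IL13RA2, IL4R and IL2RB fell. Of the 152 loci, 68 reached a mean of 10 normalized reads and were tested, 41 had reads but a lower mean, and 43 had no read in any library. The words rose and fell are used for an adjusted p under 0.05 in limma, fitted on log2(normalized reads + 1) over all 18849 loci with that mean, with Benjamini-Hochberg adjustment over all of them. Of the 68 loci, 22 (32.4%) fell, against 6.23% of all loci tested, and 5 (7.35%) rose, against 4.47%. The thresholds of the study, an unadjusted p of at most 0.05 with a fold change of at least 1.5, were applied to the same limma fit. By them 20 loci (29.4%) were lower, against 4.83% of all loci, and 4 (5.88%) were higher, against 2.83%. Here and below, a gene past these thresholds is so in limma, which is not the gene list that the study reported. In 31 of the 68 loci (45.6%) every si-SAM68 library was below every si-CTRL library, which held for 17.3% of all loci, and in 9 (13.2%) every si-SAM68 library was above, which held for 16.6%. For a locus that rose or fell, such a separation largely goes with the call and adds little to it. The median log2 fold change was -0.31 over the group and 0.005 over all loci tested. Members chosen by passing the mean of 10 include 2, IL33 and CSF3, whose mean was under 10 in the si-SAM68 libraries.

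**Figure D1:**
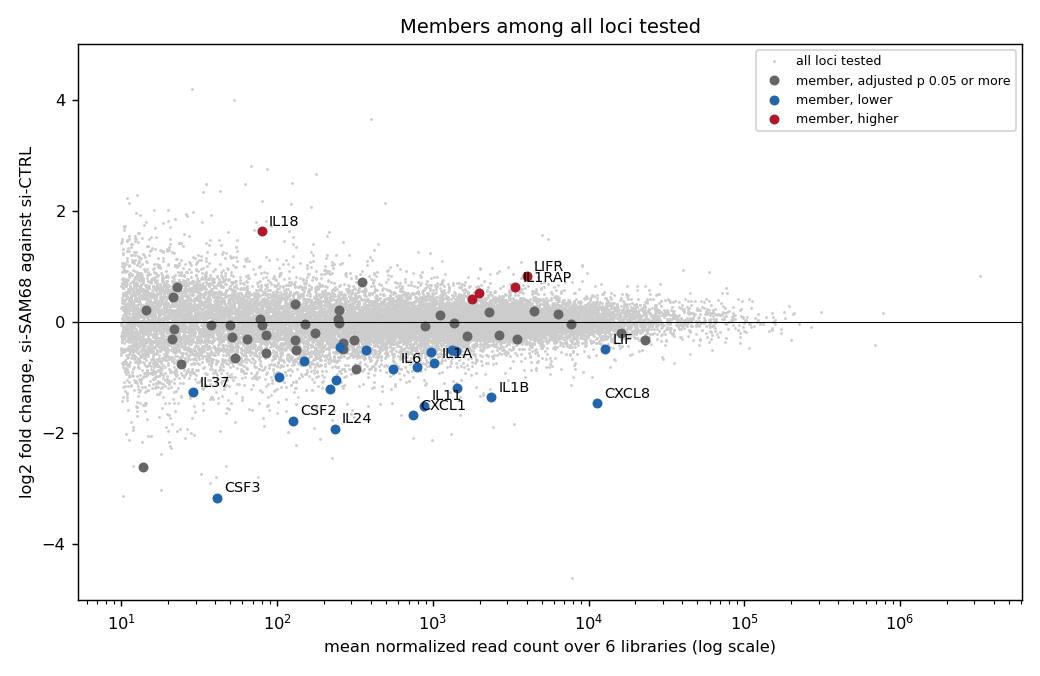
Log2 fold change of si-SAM68 against si-CTRL (y axis) against the mean normalized read count over 6 libraries (x axis, log scale) for all 18849 loci tested (light grey) and the 68 tested loci of the group (dark grey, blue where they fell, red where they rose). The 22 blue points lie between CSF3 at -3.16 and IL12A at -0.45, and the 5 red points between IL17RC at 0.41 and IL18 at 1.63.

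Most of the genes that fell encode ligands. Of 33 tested ligand loci, 17 (51.5%) fell and 1 (3.03%) rose, with a median log2 fold change of -0.52. Among those that fell is a locus that IL5 shares with SHROOM1. Of 31 tested receptor loci and binding proteins, 5 (16.1%) fell and 4 (12.9%) rose, with a median of -0.23. Over all loci tested, 6.23% fell and 4.47% rose, and these shares stand beside each class count below, where most classes hold few loci. The 4 remaining tested loci, IL32, IL16, the antisense RNA IL12A-AS1 and a locus that joins IL4I1 with AKT1S1 and NUP62, were not called. IL32, a cytokine gene outside the other families, had 1936, 1761 and 1725 reads in the controls and 1520.2, 1522 and 1535 after depletion (log2 fold change -0.24, SE 0.082, adjusted p = 0.09). When the loci that join several genes were left out, 21 of 63 loci fell and 5 rose.

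**Figure D2:**
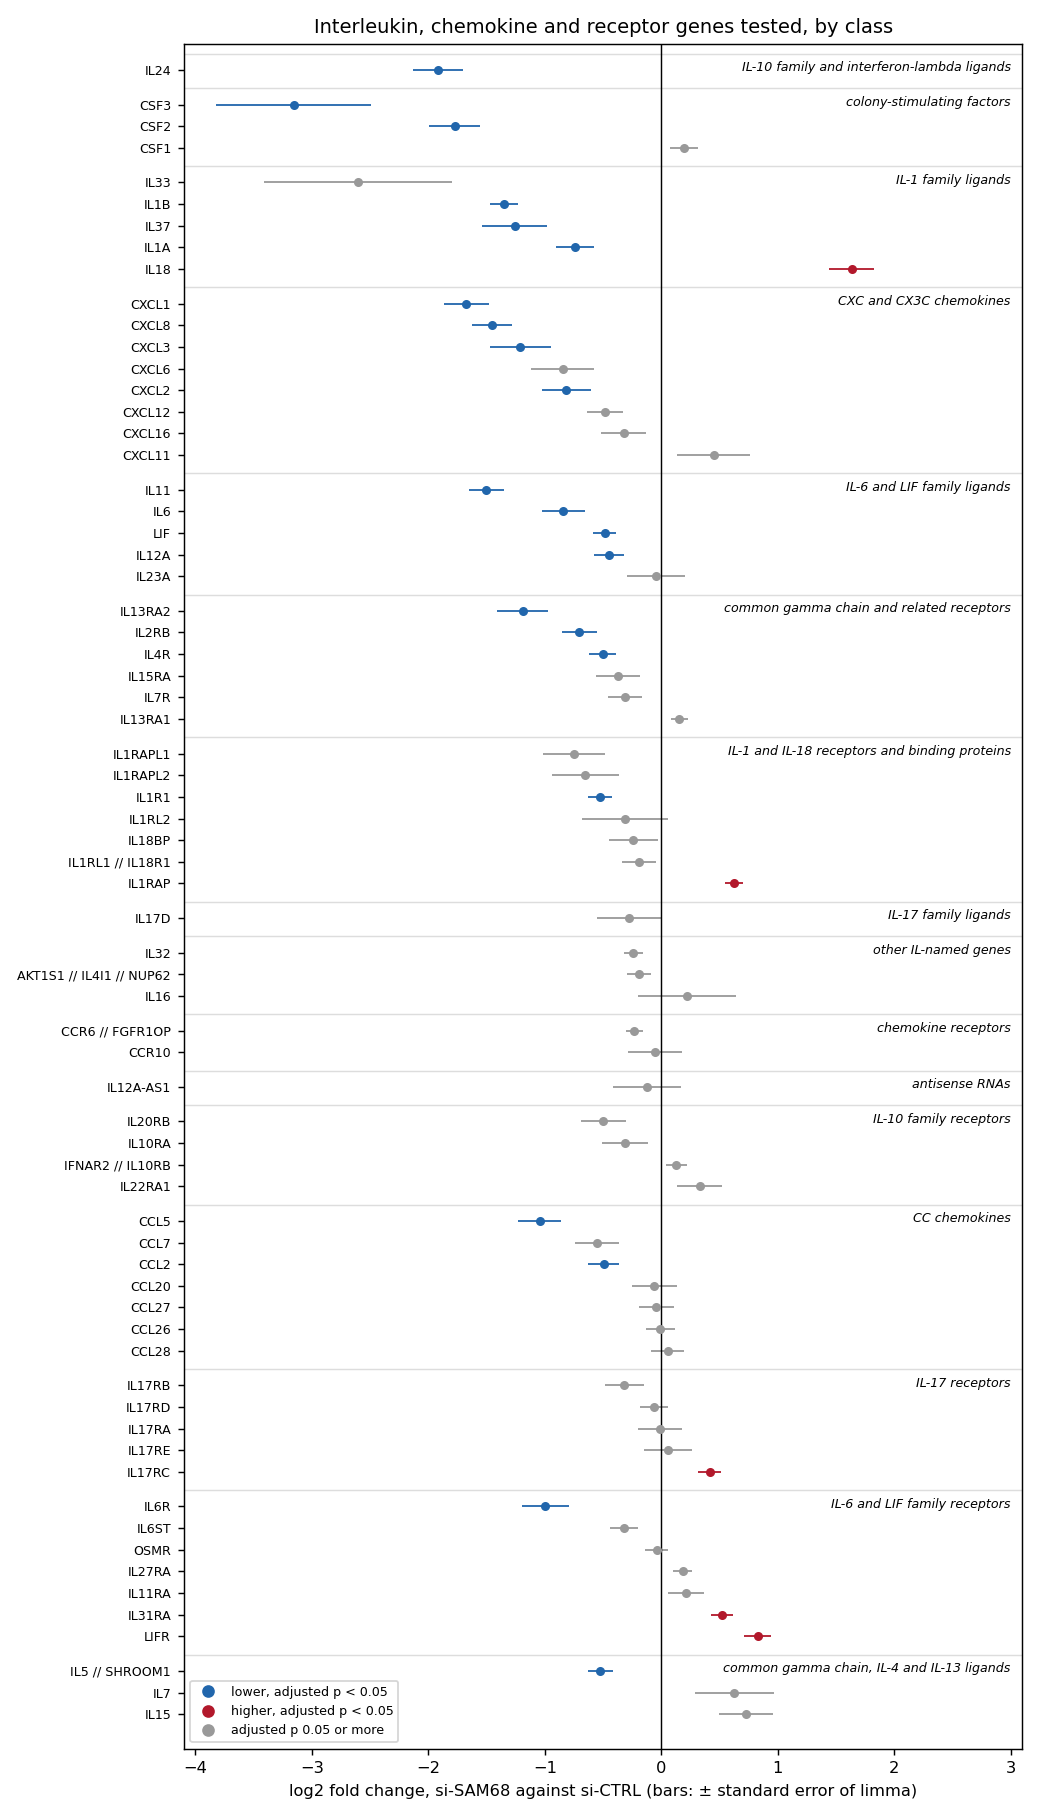
Log2 fold change with its standard error from limma for each of the 68 tested loci, grouped by class of ligand or receptor, blue where the gene fell, red where it rose and grey where the adjusted p was 0.05 or more. IL24, the colony-stimulating factors CSF3 and CSF2 and the IL-1, CXC and IL-6 family ligands hold the largest negative values, and IL18 the largest positive one.

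The IL-1 family holds proinflammatory ligands (IL-1alpha, IL-1beta, IL-18, IL-33) and the anti-inflammatory IL-37. Of its 11 ligand genes 5 were tested, of which IL1B, IL37 and IL1A fell and IL18 rose. IL1B (hg19 chr2:113587332-113594357), whose product is a secreted mediator of fever and acute inflammation, had 3773, 3031 and 3413 normalized reads in si-CTRL replicates 1 to 3 and 1158, 1547 and 1310.3 in the si-SAM68 replicates (log2 fold change -1.35, SE 0.12, adjusted p = 0.000315). IL1A (chr2:113531493-113542975), whose product acts from the cell surface and on release from damaged cells, had 1429, 1047 and 1339 reads in the controls and 595, 850.0 and 846 after depletion (log2 fold change -0.74, SE 0.16, adjusted p = 0.019). For both genes every si-SAM68 library was below every control library. IL37 (chr2:113670541-113676456) was expressed at a lower level, with 40.0, 32.9 and 50.4 against 14.1, 18.4 and 16.8 reads (log2 fold change -1.26, SE 0.28, adjusted p = 0.0218). These 3 genes lie in one stretch of chromosome 2, and in each of them the groups were separate.

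IL18 (chr11:112013976-112034840), on chromosome 11, encodes a cytokine that is matured by caspase-1 as IL-1beta is and induces interferon-gamma in lymphocytes. It had 38.7, 44.6 and 32.3 normalized reads in the si-CTRL libraries and 119, 114 and 129.6 in the si-SAM68 libraries, from 31, 46 and 34 against 118, 124 and 116 reads before scaling. The means were 38.5 ± 6.12 and 121 ± 7.94 (SD, n = 3), and the groups were far apart (log2 fold change 1.63, SE 0.19, adjusted p = 0.00118). IL33, an alarmin that signals through IL1RL1, had only 11.2, 22.3 and 36.1 reads in the controls and 9.07, 3.68 and 0 after depletion. It was lower by the thresholds of the study but did not pass the adjustment (log2 fold change -2.60, SE 0.80, adjusted p = 0.0677). No read of IL1RN, which encodes the IL-1 receptor antagonist, was found in any library, and IL1F10 and IL36A were also at 0.

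IL6, although of another family, is commonly measured together with the IL-1 genes as a marker of inflammatory activation. It had 926, 555 and 683 reads in the controls and 326, 443 and 419 after depletion (log2 fold change -0.84, SE 0.19, adjusted p = 0.0203), and the 2 groups did not overlap. IL18 therefore moved against IL1A, IL1B and IL6 in the same libraries. As a percentage of the IL1B count, IL18 was 0.947% to 1.47% in the si-CTRL libraries and 7.37% to 10.3% in the si-SAM68 libraries. The log2 ratio of IL18 to IL1B was -6.43 ± 0.33 in control and -3.45 ± 0.26 in depleted cells (SD, n = 3), a difference of 2.98. The log2 ratio to IL1A was -5.01 ± 0.43 and -2.63 ± 0.29, and that to IL6 was -4.17 ± 0.49 and -1.69 ± 0.25. Each of these 3 differences had a two-sided exact permutation p of 0.1, which is the smallest that 3 libraries against 3 can give and stays 0.1 after Benjamini-Hochberg adjustment over the 3. That p was fixed in advance, because the groups were separate in all 4 genes and IL18 went the other way. It therefore adds nothing to the calls of the single genes, and the 3 ratios share IL18. Counted without regard to gene length, IL18 still had the fewest reads of the 4 genes in every library.

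**Figure D3:**
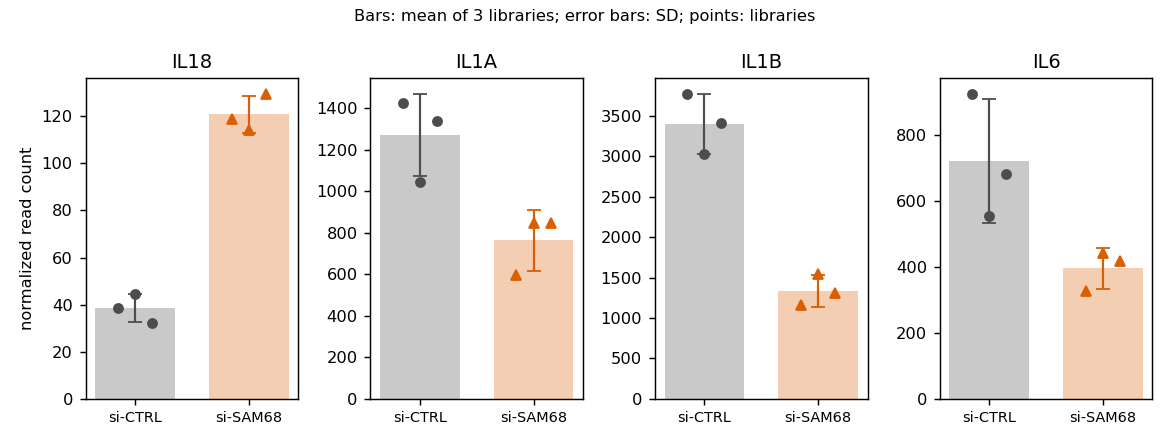
Normalized read counts (y axis, linear from 0, own scale in each panel) of IL18, IL1A, IL1B and IL6 in 3 si-CTRL and 3 si-SAM68 libraries, with points for libraries, bars for means and error bars for SD. IL18 goes from a mean of 38.5 to 120.8, while IL1A, IL1B and IL6 are lower in every si-SAM68 library than in any control library.

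Receptors of the IL-1 family changed in both directions. IL1R1, the signalling receptor of both IL-1 forms, had 1152, 1133 and 1157 reads in the controls and 708, 788 and 898 after depletion (log2 fold change -0.53, SE 0.10, adjusted p = 0.0127). IL1RAP, the accessory chain that IL1R1 and the IL-33 receptor share, rose from 2628, 2629 and 2741 to 3885, 4345 and 4086 (log2 fold change 0.62, SE 0.077, adjusted p = 0.00148), with all si-SAM68 libraries above all controls. Related chains encoded on the X chromosome were low. IL1RAPL1 had 31.2, 30.0 and 30.4 against 18.1, 18.4 and 16.8 reads and IL1RAPL2 82.5, 54.2 and 59.9 against 40.3, 28.5 and 58.1, and both were lower by the thresholds of the study but not after adjustment (adjusted p = 0.0998 and 0.179). The locus that joins IL1RL1 with IL18R1, the ligand-binding chain of the IL-18 receptor, had 187 ± 15.5 reads in the controls and 164 ± 18.5 after depletion (adjusted p = 0.423). IL18BP, which encodes a secreted inhibitor of IL-18, had 91.6 ± 11.2 and 78.4 ± 17.7 (adjusted p = 0.5). Its locus overlaps NUMA1, with a mean of 6627 reads, over 2851 bases, and may share reads with it. IL18RAP, the second chain of the IL-18 receptor, had a mean of 0.307 over the 6 libraries. 

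The inflammasome is the complex through which caspase-1 matures IL-1beta and IL-18. Of 16 genes of the inflammasome and of IL-1 processing, 7 were tested and 1 (14.3%) was called, against 10.7% of all loci in either direction. NLRP3, the sensor of the best known inflammasome, fell from 1021, 796 and 928 to 378, 474 and 449 reads (log2 fold change -1.08, SE 0.13, adjusted p = 0.00118). PYCARD, the adaptor between NLRP3 and caspase-1, had no read in any library. CASP1 had 138 ± 5.05 reads in control and 154 ± 15.4 in depleted cells (adjusted p = 0.526), and GSDMD, which forms the pore for release, 6314 ± 1057 and 6705 ± 243 (adjusted p = 0.621). Of 15 genes of IL-1 receptor signalling, from MyD88 and the IRAK kinases downwards, 14 were tested and none passed the adjusted threshold in limma, with log2 fold changes of -0.38 to 0.38. Of these 14 genes, 4 had an unadjusted p under 0.05 in limma, edgeR called 0 and DESeq2 called 2.

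Of 5 tested ligand genes of the IL-6 and LIF family, whose products signal through gp130 or related chains, IL11, IL6, LIF and IL12A fell. Of 7 tested receptor genes, LIFR and IL31RA rose and IL6R fell. IL11, a gp130 cytokine known for its part in bone metastasis and fibrosis, had 1065, 1263 and 1597 reads in the controls and 399, 481 and 490.4 after depletion (log2 fold change -1.5, SE 0.15, adjusted p = 0.000652). LIF was among the most abundant ligands, with 16825, 13387 and 14829 against 10520.5, 11566 and 9962 reads (log2 fold change -0.49, SE 0.098, adjusted p = 0.0141). The groups did not overlap in either gene. IL12A, the alpha chain of IL-12 and IL-35, had 312, 277 and 295 against 208, 201 and 240.2 reads, with an adjusted p of 0.0489 that rose to 0.0685 when the replicate number was taken as a block, and it lies within the antisense gene IL12A-AS1 (mean of 21.7 reads). IL23A did not pass the threshold (log2 fold change -0.04, SE 0.25, adjusted p = 0.932).

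LIFR, which binds LIF and pairs with gp130, rose from 2437, 3382 and 2893 to 4761, 5432 and 5169 reads (log2 fold change 0.83, SE 0.12, adjusted p = 0.00279). IL31RA, the chain that binds IL-31 together with OSMR, rose from 1519.8, 1594 and 1776 to 2196, 2492 and 2323 (log2 fold change 0.52, SE 0.091, adjusted p = 0.0079). IL6R, the ligand-binding chain for IL-6, went the other way, from 164, 116 and 133 to 66.5, 56.1 and 83.8 reads (log2 fold change -1.0, SE 0.20, adjusted p = 0.0155). The locus of IL6R lies wholly within a locus named for SLC39A1 and MIR6737 with a mean of 16786 reads, and LIFR overlaps the antisense gene LIFR-AS1 with a mean of 287. Whether the reads were counted by strand is not given in the sources used here. The shared chain gp130 itself, IL6ST, had the highest mean count of the group. Its libraries had 28369, 23313 and 24979 reads in the controls and 17126, 23109 and 21480.0 after depletion, all below the controls, and it was not called (log2 fold change -0.32, SE 0.12, adjusted p = 0.115). OSMR had 7877 ± 876 and 7642 ± 571 reads (SD, n = 3) and overlapped between groups (log2 fold change -0.04, SE 0.096, adjusted p = 0.826).

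Of 19 genes of gp130 and JAK-STAT signalling, 17 were tested, of which 1 rose and 2 fell, together 17.6% against 10.7% of all loci in either direction. edgeR called 2 and DESeq2 4 of the 17 genes. STAT3, the main transcription factor downstream of gp130, rose from 9939.9, 9235 and 8701 to 11538, 11726 and 11215 reads (log2 fold change 0.31, SE 0.075, adjusted p = 0.0301). STAT2, which acts in the response to interferon, fell from 735 ± 71.3 to 555 ± 31.0 (log2 fold change -0.40, SE 0.11, adjusted p = 0.0421), and CISH, a feedback inhibitor of cytokine receptors, from 133 ± 9.25 to 79.9 ± 19.9 (log2 fold change -0.76, SE 0.21, adjusted p = 0.0443). The adjusted p of CISH was 0.0507 in edgeR.

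Among the colony-stimulating factors, which drive the growth of granulocytes and macrophages, CSF3 and CSF2 fell and CSF1 did not pass the test. CSF2, which encodes GM-CSF, had 232, 164 and 192 reads in the controls and 45.3, 75.4 and 51.4 after depletion (log2 fold change -1.77, SE 0.22, adjusted p = 0.00152). CSF3, which encodes G-CSF, had 94.99, 17.4 and 114 reads in the controls against 4.03, 3.68 and 11.2 (log2 fold change -3.16, SE 0.67, adjusted p = 0.0176). The depleted libraries lay at the level of a few reads, and the control libraries were themselves spread, with si-CTRL replicate 2 nearest to the depleted ones. Without that library the log2 fold change of CSF3 was -3.99, and without si-CTRL replicate 3 it was -2.67. The call was lost without si-CTRL replicate 3 (adjusted p = 0.0591), si-SAM68 replicate 1 (0.0752) or si-SAM68 replicate 2 (0.0547). CSF1, which encodes M-CSF, had 4854, 4151 and 3469.9 against 5070.3, 4739 and 4349.9 reads, and the groups overlapped (log2 fold change 0.19, SE 0.12, adjusted p = 0.328).

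The CXC chemokines that bind CXCR1 and CXCR2 and attract neutrophils lie in a cluster on chromosome 4. Of 15 CXC and CX3C chemokine genes 8 were tested and 4 fell, all of them from this cluster. CXCL1 (hg19 chr4:74735109-74737018) had 1239, 908 and 1239 reads in the controls and 258, 379.9 and 435 after depletion (log2 fold change -1.67, SE 0.19, adjusted p = 0.00107). CXCL8 (chr4:74606223-74609431), which encodes IL-8 and was the most abundant chemokine, had 16678, 14504 and 18765 against 4404, 7080.4 and 7036 (log2 fold change -1.46, SE 0.17, adjusted p = 0.00118). CXCL3 (chr4:74902314-74904524) had 300.0, 218 and 399 against 88.7, 159 and 147 (log2 fold change -1.21, SE 0.26, adjusted p = 0.0184). In these 3 genes si-SAM68 replicate 1 was the lowest library of all and the groups were separate. CXCL2 (chr4:74962756-74964997) had 815, 898 and 1307 against 412, 666 and 636 reads (log2 fold change -0.82, SE 0.21, adjusted p = 0.0368). CXCL6 (chr4:74702273-74704476) had 264, 445 and 539 against 161, 237 and 283, with groups that overlapped, and passed the thresholds of the study but not the adjustment (log2 fold change -0.85, SE 0.27, adjusted p = 0.0737). With the replicate number as a block its adjusted p was 0.00998. CXCL1, CXCL2 and CXCL3 are close paralogs whose reads the counting may have divided between them, and CXCL5 of the same cluster had a mean of 1.10 reads. The other tested members, CXCL12, CXCL16 and CXCL11, were not called, with log2 fold changes of -0.48, -0.32 and 0.45.

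The promoters of the genes of this cluster are shown because they share a short stretch of sequence, and that of IL6 because it holds another match to the same consensus. A promoter, the 250 bases before and 50 after the start, was at hand from RefSeq (GRCh38.p14) for 49 of the 68 tested loci. Of the members that fell, CCL2, CCL5, LIF, CSF3, IL13RA2, IL2RB and the locus of IL5 with SHROOM1 were not among the 49, and of those that rose, IL18 and IL31RA were not. The NF-kB consensus, searched on both strands, was found in 18 of these 49 genes (36.7%), against 13.3% of all 27305 genes with a listed promoter. It was found in 6 of 15 members that fell (40.0%), 0 of 3 that rose and 12 of 31 that were not called (38.7%). The shorter string GGAATTTC, which was chosen after the promoters had been read and overlaps the NF-kB consensus in part of its matches, was found in 6 members and in 1.36% of all genes. Those 6 were CXCL1, CXCL2, CXCL3 and CXCL8, which fell, and CXCL6 and CXCL11, which were not called. TATAAA was found in 10 of the 49 (20.4%) and in 14% of all genes. Such a match is a description of letters and not of binding. The 130 bases before the start are printed 5′ to 3′ on the strand of the gene, with the match to the NF-kB consensus or, in CXCL8, to GGAATTTC in capitals.
CXCL1 (chr4:73869263-73869392, plus strand): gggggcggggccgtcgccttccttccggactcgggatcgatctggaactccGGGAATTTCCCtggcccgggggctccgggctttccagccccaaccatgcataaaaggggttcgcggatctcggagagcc
CXCL2 (chr4:74099196-74099325, minus strand): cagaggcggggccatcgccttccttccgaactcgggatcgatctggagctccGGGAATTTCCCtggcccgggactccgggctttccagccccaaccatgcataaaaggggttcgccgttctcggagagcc
CXCL3 (chr4:74038690-74038819, minus strand): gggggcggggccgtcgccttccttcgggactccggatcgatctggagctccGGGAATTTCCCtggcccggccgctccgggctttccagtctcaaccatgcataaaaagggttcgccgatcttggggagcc
CXCL6 (chr4:73836548-73836677, plus strand): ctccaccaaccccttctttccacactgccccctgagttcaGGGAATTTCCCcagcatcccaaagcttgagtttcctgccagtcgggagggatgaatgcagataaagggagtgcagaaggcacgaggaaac
CXCL8 (chr4:73740439-73740568, plus strand): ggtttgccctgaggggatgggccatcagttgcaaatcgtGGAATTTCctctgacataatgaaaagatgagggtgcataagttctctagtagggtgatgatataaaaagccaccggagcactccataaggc
IL6 (chr7:22727070-22727199, plus strand): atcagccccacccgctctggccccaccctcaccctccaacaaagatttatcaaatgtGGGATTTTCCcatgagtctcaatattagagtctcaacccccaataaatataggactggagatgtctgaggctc
The capitals of CXCL1, CXCL2, CXCL3 and CXCL6 hold the same 11 letters.

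CC chemokines, which mainly attract monocytes and lymphocytes, held 2 genes that fell, CCL5 and CCL2. Of 27 genes 7 were tested. CCL5, which attracts T cells and monocytes, had 419.9, 279.9 and 268 reads in the controls and 151, 174 and 135 after depletion (log2 fold change -1.05, SE 0.19, adjusted p = 0.00844). CCL2, the main attractant of monocytes, had 434, 479 and 389.8 against 327, 335 and 264 (log2 fold change -0.49, SE 0.13, adjusted p = 0.0434), and its neighbour CCL7 106, 103 and 92.2 against 69.5, 81.0 and 55.9 without passing the adjustment (adjusted p = 0.0944). CCL20, CCL26, CCL27 and CCL28 lay between -0.06 and 0.05 on the log2 scale, with groups that overlapped. Chemokine receptors were hardly expressed. Of 16 loci only CCR10 (log2 fold change -0.05, SE 0.23, adjusted p = 0.915) and a locus that joins CCR6 with FGFR1OP were tested, CXCR1, CXCR2 and CXCR4 had means of 1.37, 0.336 and 0.653 reads, and CCR2, CCR3, CCR8, CCR9, CXCR3 and CXCR6 were among those at 0.

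IL24, a cytokine of the IL-10 family first described in differentiating melanoma cells, was the only tested ligand of its class. It had 359, 292 and 459 reads in the controls and 72.5, 121 and 99.4 after depletion (log2 fold change -1.92, SE 0.22, adjusted p = 0.00101), and its locus overlaps FCMR over 852 bases. Receptors of that family (IL10RA, IL20RB, IL22RA1 and the locus that joins IL10RB with IFNAR2) were not called, with log2 fold changes of -0.50 to 0.33. Of these 4 loci limma gave 1 an unadjusted p under 0.05, and edgeR and DESeq2 called 0.

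Among the receptors for IL-2, IL-4, IL-7, IL-13 and IL-15, 3 of 6 tested genes fell. IL13RA2, a high-affinity receptor that binds IL-13 without the usual JAK-STAT signalling, had 1864, 1441 and 2652 reads in the controls and 641, 905 and 1029.9 after depletion (log2 fold change -1.19, SE 0.22, adjusted p = 0.0104). IL4R, the signalling chain for IL-4 and IL-13, had 1811, 1370.5 and 1531 against 1039, 1187 and 1078 (log2 fold change -0.50, SE 0.11, adjusted p = 0.0221). IL2RB, shared by the receptors of IL-2 and IL-15, had 190.0, 204 and 158 against 114, 107 and 115 (log2 fold change -0.71, SE 0.15, adjusted p = 0.0179). In all 3 genes the groups were separate. IL13RA1, which pairs with IL4R, had 6024 ± 194 and 6699 ± 334 reads (log2 fold change 0.15, SE 0.074, adjusted p = 0.217), and IL7R had 3846 ± 508 and 3124 ± 599 (log2 fold change -0.31, SE 0.15, adjusted p = 0.207). IL2RG, the common gamma chain itself, had a mean of 0.695 reads. Of the ligands, IL15 had 166, 335 and 312 against 419, 408 and 465 reads and was higher by the thresholds of the study but not after adjustment (log2 fold change 0.73, SE 0.23, adjusted p = 0.0732), while IL2, IL3, IL4, IL9, IL13 and IL21 had no read. The locus of IL5 and SHROOM1, which overlaps several expressed genes including RAD50, fell (log2 fold change -0.52, SE 0.10, adjusted p = 0.014), and how many of its reads belong to IL5 cannot be told. IL17RC, a chain of the receptor for IL-17A and IL-17F, rose from 1475, 1479 and 1645 to 2315, 1969 and 1862 reads (log2 fold change 0.41, SE 0.10, adjusted p = 0.0303), with an adjusted p of 0.0529 under the replicate block. IL17RA, IL17RB, IL17RD and IL17RE were not called, and IL17A had no read.

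**Figure D4:**
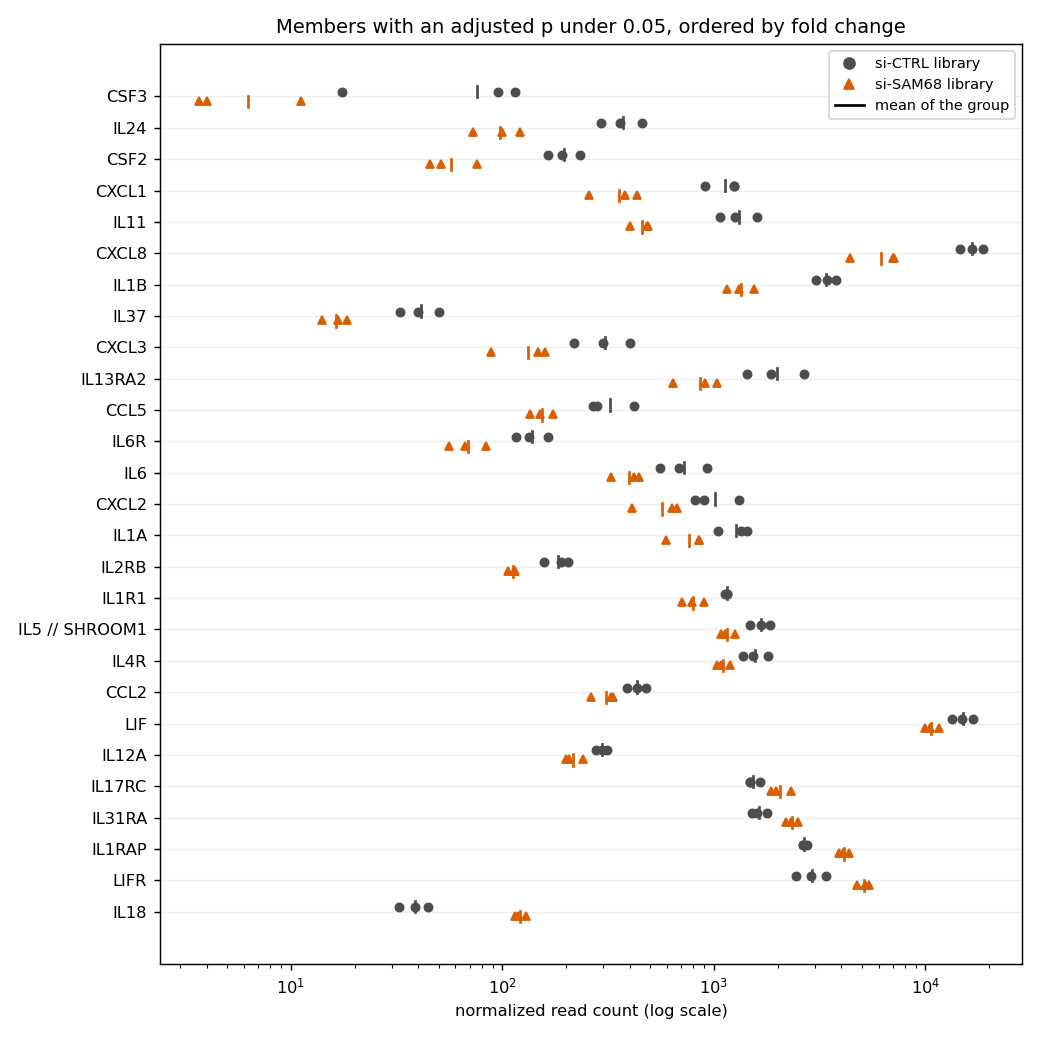
Normalized read count (x axis, log scale) in each si-CTRL library (grey circles) and si-SAM68 library (orange triangles), with the group mean as a vertical line, for the 27 loci with an adjusted p under 0.05, ordered by fold change from CSF3 to IL18. The circles and triangles of a gene do not overlap, which largely follows from choosing the loci by that p. The counts span from 3.68 reads for CSF3 to 18765 for CXCL8.

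Levels were compared between genes after division by the exon length of the gene (GENCODE 29), which was found for 63 of the 68 loci. This length joins the exons of all annotated transcripts and can exceed that of the mRNA present, so the order of genes is rough. Per kilobase of exon, CXCL8 was the highest member in control cells with a mean of 7321 normalized reads, followed by LIF with 3783, IL6ST with 2750.0, IL13RA1 with 1378 and IL13RA2 with 1221. IL1B followed with 1100.0, OSMR with 1098 and CXCL1 with 871. In si-SAM68 cells the level of CXCL8 was 2715 and that of LIF 2692 per kilobase, so that these 2 genes were near each other, which they were not in control cells. IL1B was at 432, IL13RA2 at 528 and CXCL1 at 276. By mean count without regard to length the 10 highest loci were IL6ST (a mean of 23063 reads over the 6 libraries), the locus of IL4I1 with AKT1S1 and NUP62 (16101), LIF (12848), CXCL8 (11411), OSMR (7759.8), IL13RA1 (6362), CSF1 (4439), LIFR (4012), IL7R (3485) and IL1RAP (3386).

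The order of the libraries within each group was counted among the genes that fell. Among these 22 genes si-SAM68 replicate 1 was the lowest library of its group in 14, replicate 2 in 5 and replicate 3 in 3, and si-CTRL replicate 2 was the lowest control in 17. Replicate 2 of si-SAM68, the library with the high share of ribosomal RNA, was the highest of its group in 13 of the 22. This order was not counted over all loci, so whether it is particular to these genes cannot be told. Genes that vary together are also not independent counts. Each library was then left out in turn, and the adjusted p was computed again over all 18849 loci. Of the 27 called loci, 11 stayed under 0.05 without any single library, which were IL24, CSF2, CXCL1, IL11, CXCL8, IL1B, IL13RA2, IL31RA, IL1RAP, LIFR and IL18. The other 16 rose above 0.05 in at least 1 of the 6 fits, with the same direction in each. The number of loci that fell was 10 without si-SAM68 replicate 1 and also 10 without replicate 3, and 14 without si-SAM68 replicate 2 or si-CTRL replicate 3. The number that rose was 4 without si-SAM68 replicate 1, without replicate 2 and without replicate 3 alike. Over all loci the number that fell was 555 without si-SAM68 replicate 1 and 402 without replicate 3, against 1175 in the full set. IL1A lost its call without si-SAM68 replicate 1 (adjusted p = 0.061), si-SAM68 replicate 3 (0.0591) or si-CTRL replicate 3 (0.0565), and IL6 without si-SAM68 replicate 1 (0.0841) or replicate 3 (0.0800).

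**Figure D5:**
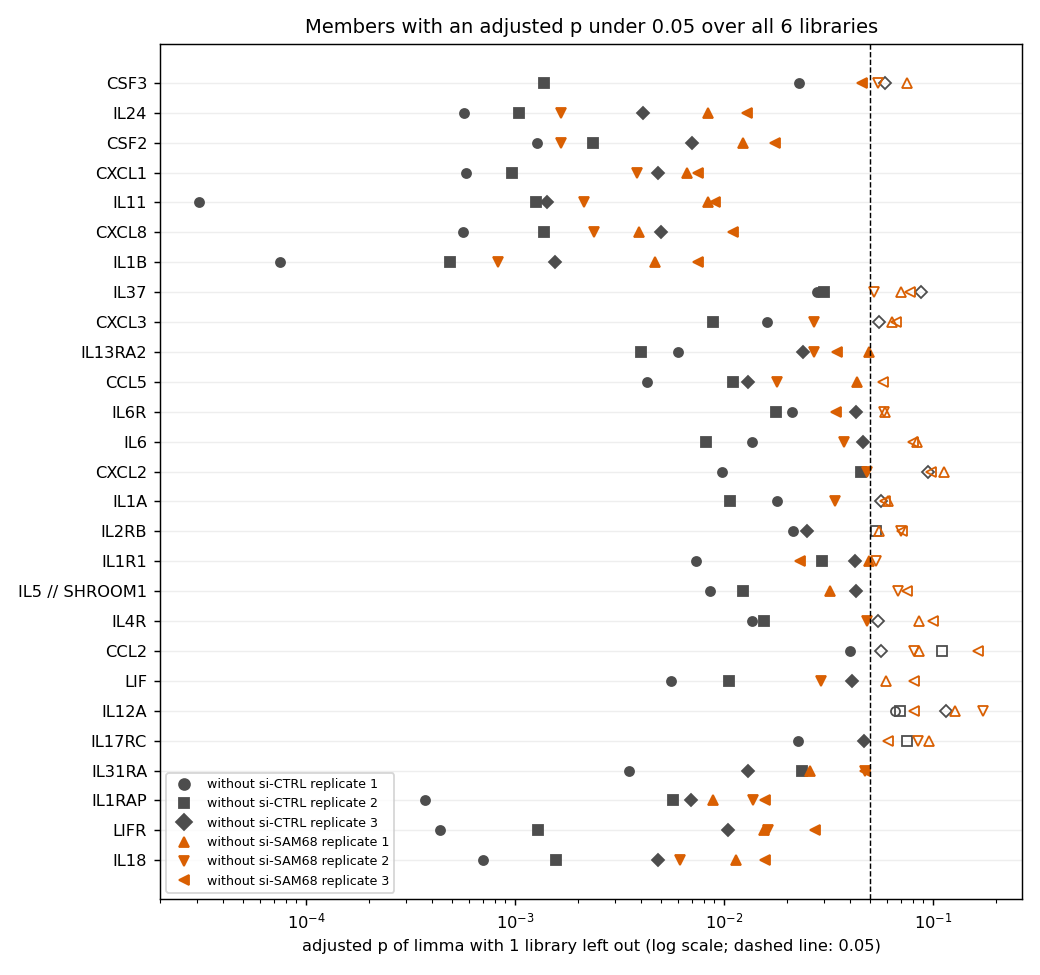
Adjusted p of limma (x axis, log scale, dashed line at 0.05) for each of the 27 called loci with 1 library left out at a time, with one symbol per library left out, filled under 0.05 and open from 0.05 on. All 6 symbols are filled for 11 loci, among them IL18, IL1B and CXCL8, and all 6 are open for IL12A.

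Among the loci that were not tested, CCR4 had the highest mean with 9.58 reads, followed by IL21R with 8.98, CCR7 with 8.89 and CXCL10, a chemokine induced by interferon, with 8.14. At the other side of the limit, IL33 had a mean of 13.7 and IL16 of 14.5 reads. Genes at 0 included IL2, IL4, IL10, IL12B, IL13 and IL17A, which were not detected at this depth.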

How the data were processed

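Polyadenylated RNA of MDA-MB-231 cells was sequenced in 3 si-CTRL and 3 si-SAM68 libraries. The titles of the samples gave the group and the replicate number. The labels and the methods of the study differ in harvest time, medium and RNA extraction kit. The authors deposited 1 table of 74852 FAST DB loci (hg19), and its unit is a signal, reads counted per locus over the size factor that DESeq2 set for each library. The submitters' processing notes name FastQC, Picard, SAMtools, STAR 2.4.0 and DESeq2, while the counting program and its use of strand are not given in the sources used here. In each library 100% of values were whole multiples of the smallest one (tolerance 0.001), which gave the reads back. In si-SAM68 replicate 1 this step, 1.01, is too near 1 to be a strong check.

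Differences were tested with limma 3.58.1 (R 4.3.3, eBayes with a trend) on log2(value + 1) over 18849 loci whose mean was 10 or more, with Benjamini-Hochberg adjustment over all of them, so fold changes of low genes are understated. The thresholds of the study (p of at most 0.05, fold of at least 1.5) were applied to the same fit. The members, the classes, the pathway and marker lists and the tests were chosen with earlier results of these data known. The text names KHDRBS1, IL18, IL1A, IL1B and IL6, each member past either rule, the 10 tested members with the highest mean, and the pathway genes past the adjusted threshold, except results that are not reported here. Genes given besides these to describe a class, a receptor chain or the untested loci were chosen after their values were seen. Joined loci, overlapping and antisense genes and close paralogs may share reads.

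Libraries of the same replicate number deviated together weakly from their group means (correlations over loci of 0.105, 0.231 and 0.125, against -0.125 to 0.00687 for unlike numbers). Deviations within a group sum to 0, so the negative values are partly forced. The labels name no shared batch. The main fit, which gave all calls, SE and p-values unless stated, left the number out, and limma was also run with it as a block. No pair of libraries of a group agreed within sampling noise. The chi-square per degree of freedom was 390.2 and 393 for si-SAM68 replicate 2 against replicates 1 and 3, which gave 20.7 between them. The control pairs gave 12.7 to 81.1. This sum includes the ribosomal RNA locus, which took 15.1% of the reads of si-SAM68 replicate 2 against 2.46% and 1.95% in replicates 1 and 3. That locus weighs heavily in the sum, which was not computed without it. The high values therefore do not show that replicate 2 differed across genes in general. The fit was also repeated with a pseudocount of 0.1 or 5, without the filter or with a mean of 50 required, after TMM rescaling or quantile normalization, with a robust trend and without each library. The recovered reads were given to DESeq2 1.42.0 and to the quasi-likelihood test of edgeR 4.0.16. edgeR called 859 loci higher and 1167 lower and DESeq2 1248 and 1541, with 2209 adjusted p missing in DESeq2. With 3 libraries per group the precision rests on the spread between libraries more than on depth. The fitting program was checked on simulated counts. Promoters are those of RefSeq (GRCh38.p14) and exon lengths those of GENCODE 29 (GRCh38), both used by gene symbol and without converting coordinates.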

Additional observations from a re-analysis of the deposited data

How the results depend on the processing

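IL18, IL1A, IL1B and IL6 kept their directions in every alternative, and more members fell than rose in each, although the number that fell moved with the libraries used. None of 508 values for 32 followed genes reversed: 442 kept their side of the threshold, 57 lost it, all but 9 of them with a library left out, and another 9 gained it. With 1 library left out, the members that fell numbered 10 to 24 instead of 22 and those that rose 4 to 7 instead of 5. By the thresholds of the study they numbered 18 to 22 instead of 20 and 3 to 5 instead of 4. The log2 fold change then ranged from -0.88 to -0.57 for IL1A and from -1.02 to -0.65 for IL6, which lost their calls in 3 and 2 of these fits, and from 1.52 to 1.74 for IL18 and -1.46 to -1.25 for IL1B, which kept theirs. Fits without a library have fewer samples, and the adjusted counts over all loci fell too, except without si-CTRL replicate 1. With the replicate number as a block, 22 members fell and 4 rose. The block took the calls of IL12A (adjusted p = 0.0685) and IL17RC (0.0529) and gave one to CXCL6 (0.00998), and changed no other call of the genes followed. In the remaining settings 19 (no filter) to 24 (DESeq2) members fell, and edgeR gave 21 lower and 5 higher. CCL2 lost its call with no filter and with quantile normalization, and CXCL2 with no filter. IL12A also lost it with a pseudocount of 5, no filter, quantile normalization and edgeR. No scaling moved the median of all loci by more than 0.01. The cause of these shifts was not tested. The depth limits genes such as IL33, whose si-SAM68 libraries held few reads or none.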
